A study of Homo sapiens with 28 samples.

Results

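The MLL-AF4 program outside the HOXA locus was followed here as 31 genes, the rows that carry their symbols among 57820 genes in every count file of the series. They were listed by name, as targets and cofactors of the MLL fusion in rearranged leukemia, with earlier results of these data known. The libraries were RNA-seq of SEM cells, an established human cell line of B-cell acute lymphoblastic leukemia that carries the MLL-AF4 fusion, and 28 of them fell into 12 groups. In the 24 h set, CTCFAID2 cells without auxin (4 libraries) and with 5-Ph-IAA for 24 h (4 libraries) were set beside untagged SEM cells (WT), 2 libraries left untreated and 2 given IAA for 24 h, for which the protocol also names doxycycline. In the 6 h set, lines labelled WT, DeltaZ1, DeltaZ10 and DeltaRBR were each profiled without auxin (2 libraries) and with IAA for 6 h (2 libraries). CTCFAID2 cells carry an endogenous CTCF fused to a miniAID tag and mClover3, with OsTIR1(F74G) from an integrated lentivirus and a doxycycline-inducible wild-type OsTIR1, so that an auxin leads to degradation of CTCF. The lines of the 6 h set are degron cells to which the study added a CTCF, full-length (WT) or lacking zinc finger 1 (DeltaZ1), zinc finger 10 (DeltaZ10) or the RNA-binding region (DeltaRBR), from a doxycycline-inducible construct. The labels name IAA alone in that set, whereas the paper describes 10 µM 5-Ph-IAA for 6 h and doxycycline for such lines. It is not known here which auxin those libraries received, nor in which of them the added CTCF was present. For that set IAA is used below as the label. The WT cells of the 24 h set and the WT line of the 6 h set are therefore different cells. The sample titles give 1 µM 5-Ph-IAA for the 24 h treatment of CTCFAID2 cells, whereas the treatment protocol in the labels gives 10 µM for the same 24 h. The labels do not say that replicates came from separate cultures, and the p-values measure the spread between libraries, which may be technical.

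In MLL-AF4 leukemia the amino-terminal part of KMT2A (MLL), a histone methyltransferase of transcribed promoters, is joined to the carboxy-terminal part of AFF1 (AF4), a scaffold of the super elongation complex. The fusion is held on chromatin with menin (MEN1) and LEDGF (PSIP1), and it brings in elongation factors of the AFF and ELL families and DOT1L, which methylates lysine 79 of histone H3. Its known targets include the HOXA genes and their cofactors MEIS1 and PBX3, and regulators of hematopoietic cells such as RUNX1, MEF2C and CDK6. CTCF binds the boundaries and enhancers of several such loci and, with cohesin, anchors loops of chromatin. Reads of AFF1 and of KMT2A cannot be divided here between the wild-type genes and the fusion.

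The libraries held 45.7 to 59.8 M counts in the 24 h set and 25.8 to 60.7 M in the 6 h set. Levels are given as CPM, counts divided by the library size in M, with library sizes scaled by TMM factors. In DeltaZ1 cells with IAA the 2 libraries stood apart from each other, with a chi-square per gene of 146, against 2.85 to 40.5 for every other pair of replicates. Among the members ARID1B was at 171 and 109 CPM and DOT1L at 49.98 and 29.2 CPM in replicates 1 and 2 of that pair. How the members called at 6 h, the calls on the 6 h mean and the DeltaZ1 difference depend on these libraries is given below. CTCF transcripts, which check the labels only in part because the degron acts on the protein, rose in CTCFAID2 cells from 143 to 151 CPM without to 250 to 256 CPM with 5-Ph-IAA. This was a log2 fold change of 0.77 ± 0.02 (SE; limma-voom adjusted p = 6.96e-12), and in the 6 h set CTCF rose by 0.64 ± 0.04 on the mean of the lines (adjusted p = 3.54e-07). Added and endogenous CTCF cannot be told apart in these reads. MME (CD10), an antigen usually lacking in MLL-rearranged cells, did not exceed 0.0576 CPM in any library. Of the 13 markers of B-cell precursors, 12 reached 1 CPM in some library, against 2 of 9 for T and NK cells, 4 of 10 for myeloid cells, 0 of 6 for erythroid cells and 2 of 5 for stroma. CD34 did not exceed 0.206 CPM, and CD3D, S100A8 and HBA1 were at 0 in every library. Of the 31 members, 12 overlap another tested gene in the annotation, among them AFF1, DOT1L, ZEB2, ARID1B and CDKN1B, and since the counting is not stated to use strand their counts may include reads of that gene.

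The members spanned the range of expression from nearly silent to abundant. Per length, in the TPM of the authors, the median member stood at 16.9 TPM in untreated CTCFAID2 cells, 2 members were under 1 TPM and 6 were over 50 TPM. LGALS1, the galectin-1 gene, was the most abundant at 169 TPM, followed by the splicing regulator MBNL1 at 118 TPM and the transcription factor MEF2C at 115 TPM. CDK6, a G1 cyclin-dependent kinase, stood at 73.5 TPM, the sheddase gene ADAM10 at 68.7 TPM and ARPP21, which encodes an RNA-binding phosphoprotein, at 58.2 TPM. MEIS1, the homeodomain cofactor of HOX proteins, stood at 25.8 TPM and AFF1 at 12.6 TPM. ELL2, TCF4 and TAPT1-AS1 were expressed at 1.09, 1.08 and 2.98 TPM. ZNF521, a zinc finger gene of hematopoietic progenitors, held 7 to 39 reads per library, failed the filter of 1 CPM in the 24 h set and passed it in the 6 h set through a single DeltaZ1 library at 1.01 CPM. EYA1, a transcriptional coactivator, was tested in both sets but held as few as 34 reads. Lines differed in level for several members. EYA1 was at 4.93 ± 0.11 CPM (SD, n = 2) in untreated WT cells of the 24 h set and at 1.07 ± 0.15 CPM (SD, n = 4) in untreated CTCFAID2 cells. PSIP1 was at 317 against 217 CPM and LGALS1 at 112 against 161 CPM. TCF4, an E protein, stood at 25.0 ± 0.02 CPM (SD, n = 2) against 11.1 ± 0.45 CPM (SD, n = 4), and DOT1L at 33.4 against 49.6 CPM. In TPM the same groups overlapped for DOT1L, at 3.85 to 5.26 TPM in WT and 4.21 to 6.14 TPM in CTCFAID2 cells. In the WT libraries of that set fewer counts were not whole numbers, and the sample titles do not say whether their processing differed. Line and any such processing cannot be told apart, and these differences in level were not tested.

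The members' promoters were searched for a short core of the CTCF recognition sequence, because the treatment removed CTCF. The core, CCNNNAGNNGGC, was looked for on both strands of the 300 bases around each RefSeq gene start (250 before and 50 after). It was present in 6 of 59 promoters listed for 23 members (10.2%) and in 10.6% of 35116 promoters of all genes, so the members did not carry it more often than promoters at large. DOT1L, ELL2, EYA1, GNAQ, LGALS1, LMO2, TAPT1-AS1 and ZNF521 had no listed promoter. Matches ahead of the start were found for 5 members, and these stretches are shown because they place the core beside members whose RNA went in different directions. Coordinates are those of GRCh38.p14, the sequences run 5′ to 3′ on the strand of the gene, and capitals mark the match.
AFF1, chr4:86934834-86934945, plus strand: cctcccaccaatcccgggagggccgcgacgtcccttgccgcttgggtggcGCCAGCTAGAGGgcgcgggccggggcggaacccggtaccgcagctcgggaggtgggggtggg
ARPP21, chr3:35639285-35639396, plus strand: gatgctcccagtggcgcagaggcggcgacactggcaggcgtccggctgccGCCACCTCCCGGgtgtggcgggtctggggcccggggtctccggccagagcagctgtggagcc
RUNX1, chr21:34888780-34888891, minus strand: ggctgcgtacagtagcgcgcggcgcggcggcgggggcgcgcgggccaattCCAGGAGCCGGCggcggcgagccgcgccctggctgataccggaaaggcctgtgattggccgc
CDKN1B, chr12:12717214-12717325, plus strand: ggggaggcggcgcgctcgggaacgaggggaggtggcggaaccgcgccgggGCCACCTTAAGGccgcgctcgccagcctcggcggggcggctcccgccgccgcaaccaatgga
TCF4, chr18:55589889-55590000, minus strand: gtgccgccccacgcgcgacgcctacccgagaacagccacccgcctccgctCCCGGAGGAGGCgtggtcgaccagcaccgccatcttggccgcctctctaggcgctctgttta
The distances from the match to the gene start were 115 bases for AFF1, 178 for ARPP21, 130 for RUNX1, 92 for CDKN1B and 127 for TCF4. ARPP21 had 9 listed promoters, TCF4 10 and AFF1 2, and another promoter of TCF4 held the core after its start. Of these genes AFF1, ARPP21, RUNX1 and CDKN1B rose after 24 h of 5-Ph-IAA and TCF4 fell. A match of letters is not a binding site, and CTCF binding was not measured in these files.

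Most members of the program were higher in CTCFAID2 cells after 24 h of 5-Ph-IAA than without it, by modest amounts. By the test 22 of the 30 tested members rose at an adjusted p of at most 0.05 (73.3%, against 29.2% of all 13973 tested genes), 5 fell (16.7%, against 29.5%) and 3 did not pass. The members were chosen with earlier results of these data known, so these shares describe the list and do not test it. No member changed 2-fold. The median log2 fold change of the members was 0.19, against -0.00 over all genes tested, and the range ran from -0.35 for LMO2 to 0.70 for LGALS1. In WT cells treated with IAA for 24 h, 1 of 30 members rose (9.35% of all genes did) and 7 fell (9.57% of all genes), with a median of -0.12 against 0.01.

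**Figure D1:**
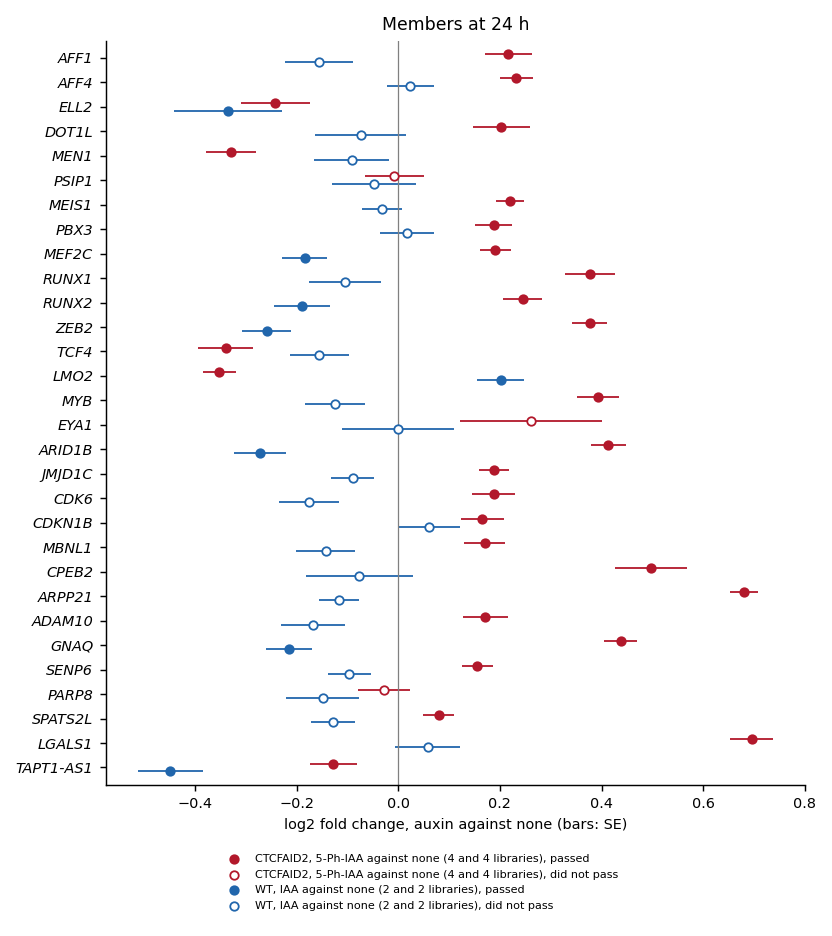
Log2 fold change with SE of the 30 members tested at 24 h, for 5-Ph-IAA against none in CTCFAID2 cells (red) and IAA against none in WT cells (blue), with filled symbols at an adjusted p of at most 0.05. Most red symbols lie right of 0, up to 0.70 for LGALS1, and most blue symbols lie left of 0, down to -0.45 for TAPT1-AS1.

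Of the genes of the elongation machinery, AFF1, AFF4 and DOT1L rose and ELL2 fell. AFF1 (chr4:87856154-88062191, plus strand; gene positions are those of GRCh37) was at 147, 161, 141 and 158 CPM in the untreated CTCFAID2 libraries and at 169.8, 177, 185 and 172 CPM with 5-Ph-IAA. All treated libraries were above all untreated ones, and the log2 fold change was 0.22 ± 0.05 (SE; adjusted p = 0.00119). DOT1L (chr19:2163932-2232577, plus strand), the H3K79 methyltransferase recruited by the fusion, measured 46.5, 51.8, 47.6 and 52.4 CPM without and 53.8, 60.3, 54.0 and 60.9 CPM with 5-Ph-IAA. The groups did not overlap, although the gap between the highest untreated and the lowest treated library was small, and DOT1L rose by 0.20 ± 0.06 (adjusted p = 0.00608). AFF4, the other scaffold of the super elongation complex, rose by 0.23 ± 0.03 (adjusted p = 2.98e-05). ELL2 (chr5:95220802-95297555, minus strand), an elongation factor of the same complex, was at 8.99, 9.71, 10.2 and 10.2 CPM without and 9.24, 8.43, 7.91 and 7.48 CPM with 5-Ph-IAA. Its groups overlapped in 1 treated library, and it fell by 0.24 ± 0.07 (adjusted p = 0.00727).

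Of the tethering factors MEN1 fell and PSIP1 did not pass. MEN1 (chr11:64570982-64578766, minus strand), which encodes menin, was at 28.7, 28.3, 29.8 and 31.7 CPM without and at 23.8, 24.4, 23.1 and 23.0 CPM with 5-Ph-IAA. Every treated library was below every untreated one, and MEN1 fell by 0.33 ± 0.05 (adjusted p = 5.19e-05). PSIP1, which encodes LEDGF, did not pass, with a log2 fold change of -0.01 and a 95% interval from -0.13 to 0.12. Both HOX cofactors rose. MEIS1 (chr2:66660584-66801001, plus strand) measured 163, 155, 153 and 165 CPM in untreated and 186, 187, 183 and 185 CPM in treated libraries, without overlap. The change was 0.22 ± 0.03 (adjusted p = 1.13e-05), close to that of PBX3, its TALE-family partner, at 0.19 ± 0.04 (adjusted p = 0.000428).

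Among the 9 transcription factors 5 rose, 2 fell, EYA1 did not pass and ZNF521 was not tested. MYB (chr6:135502446-135540311, plus strand), which maintains proliferation of hematopoietic progenitors, was at 115, 114, 119 and 117 CPM without and 163, 158, 151 and 139 CPM with 5-Ph-IAA. The treated libraries were all higher, and their spread was wider than that of the untreated ones. The log2 fold change was 0.39 ± 0.04 (adjusted p = 1.78e-06). RUNX1 (chr21:36160098-37376965, minus strand), the core-binding factor subunit of definitive hematopoiesis, measured 199, 222, 199.7 and 220.5 CPM in untreated and 272, 284, 290.1 and 248 CPM in treated libraries. It rose by 0.38 ± 0.05 (adjusted p = 1.62e-05), and the groups did not overlap. ZEB2 (chr2:145121931-145278624, minus strand), a zinc finger repressor, was at 183, 187, 187 and 196 CPM without and at 246, 247, 254 and 230.0 CPM with 5-Ph-IAA, again without overlap. It rose by 0.38 ± 0.03 (adjusted p = 3.73e-07).

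The other factors moved less. RUNX2, a RUNX1 paralog, rose by 0.24 ± 0.04 (adjusted p = 9.18e-05), and MEF2C, a MADS-box factor, by 0.19 ± 0.03 (adjusted p = 0.000106), from 825 ± 10.3 to 942 ± 37.6 CPM (SD, n = 4). LMO2 and TCF4 fell. LMO2, the bridging protein of erythroid and stem-cell factor complexes, was at 64.9 to 67.3 CPM without and 50.5 to 55.2 CPM with 5-Ph-IAA and fell by 0.35 ± 0.03 (adjusted p = 5.42e-07). TCF4 went from 11.1 ± 0.45 to 8.79 ± 0.59 CPM (SD, n = 4) and fell by 0.34 ± 0.05 (adjusted p = 8.34e-05). EYA1, near the filter, had a log2 fold change of 0.26 with a 95% interval from -0.04 to 0.56.

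Chromatin, cell cycle and RNA-regulatory members all rose. ARID1B (chr6:157097154-157531913, plus strand), a DNA-binding subunit of the BAF remodeling complex, was at 134, 143, 132 and 143 CPM in untreated and 178, 185, 191 and 180.4 CPM in treated libraries. The groups were well apart, and the log2 fold change was 0.41 ± 0.04 (adjusted p = 1.94e-07). JMJD1C, a Jumonji-domain protein, rose by 0.19 ± 0.03 (adjusted p = 8.10e-05). CDK6 rose by 0.19 ± 0.04 (adjusted p = 0.00146), from 1508 ± 55.0 to 1719 ± 109 CPM (SD, n = 4), and CDKN1B, which encodes the cell cycle inhibitor p27, by 0.17 ± 0.04 (adjusted p = 0.00377).

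ARPP21 (chr3:35680437-35835988, plus strand) gave the smallest adjusted p of all members. It was at 268, 269, 269.6 and 271 CPM in the untreated libraries and at 442, 421, 448 and 415 CPM in the treated ones. The untreated libraries hardly differed from each other, every treated library was far above them, and ARPP21 rose by 0.68 ± 0.03 (adjusted p = 9.35e-11). CPEB2 (chr4:15004105-15071777, plus strand), which binds cytoplasmic polyadenylation elements of mRNAs, measured 50.2, 61.8, 58.3 and 61.7 CPM without and 83.0, 83.1, 89.7 and 71.4 CPM with 5-Ph-IAA. It rose by 0.50 ± 0.07 (adjusted p = 3.42e-05) without overlap, but with more spread between replicates than ARPP21. MBNL1 rose by 0.17 ± 0.04 (adjusted p = 0.00249).

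Of the signaling and other members 5 of 6 rose. LGALS1 (chr22:38071643-38075809, plus strand) was at 168, 159, 165 and 153 CPM without and 249, 268, 247 and 282 CPM with 5-Ph-IAA. All treated libraries were above the untreated ones, and the change of 0.70 ± 0.04 (adjusted p = 7.34e-09) was the highest of the 31 genes. GNAQ (chr9:80331013-80646727, minus strand), a G protein alpha subunit, measured 156, 154, 158 and 158 CPM in untreated and 219, 211, 220.0 and 199 CPM in treated libraries. It rose by 0.44 ± 0.03 (adjusted p = 5.05e-08), without overlap. ADAM10 rose by 0.17 ± 0.04 (adjusted p = 0.00422) with overlapping groups, the SUMO protease gene SENP6 by 0.16 ± 0.03 (adjusted p = 0.000532) and SPATS2L by 0.08 ± 0.03 (adjusted p = 0.0358). PARP8, of the ADP-ribosyltransferase family, did not pass, with -0.03 and a 95% interval from -0.14 to 0.08. The antisense RNA TAPT1-AS1 fell by 0.13 ± 0.05 (adjusted p = 0.0280). It lies antisense to TAPT1, and because the counting is not stated to use strand, its value is uncertain.

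**Figure D2:**
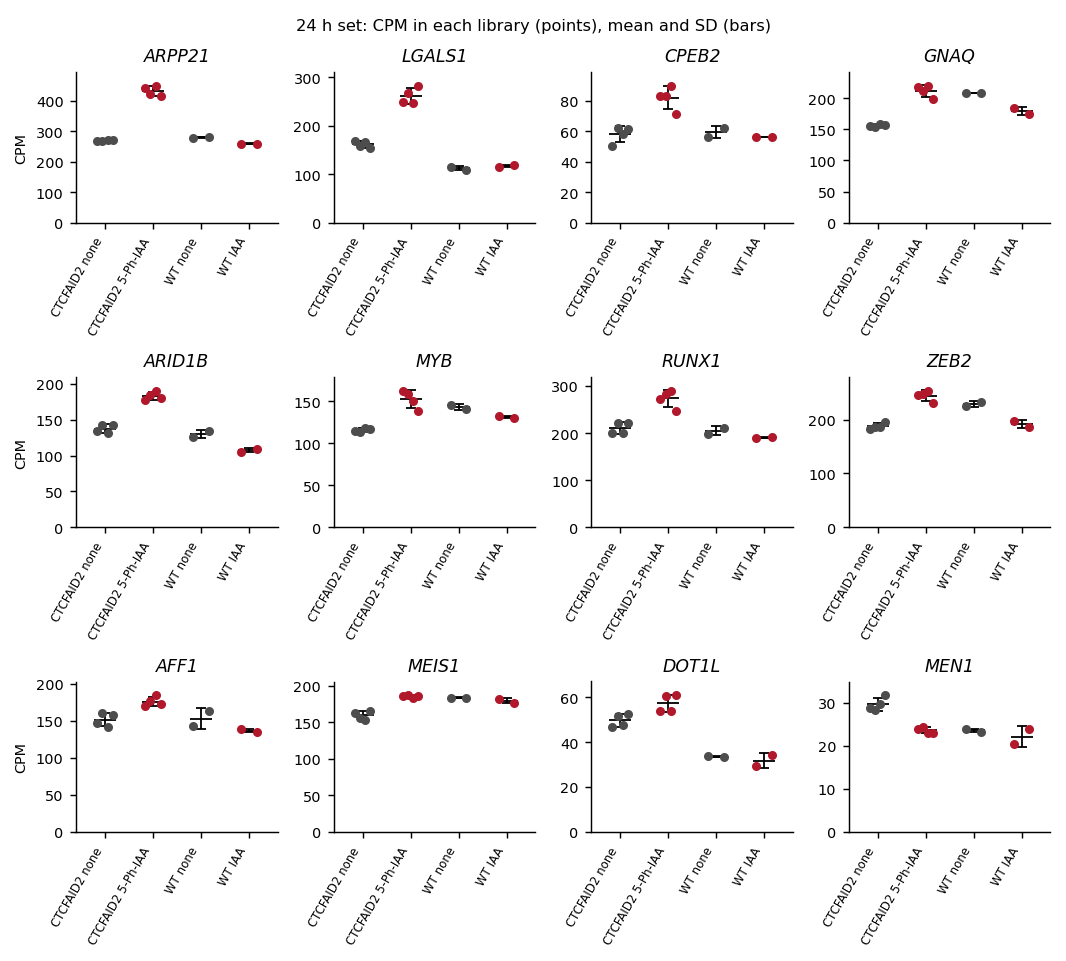
CPM of 12 members in each library of the 24 h set (points) with mean and SD (bars), without auxin in grey and with auxin in red, for CTCFAID2 cells (4 libraries a group) and WT cells (2 a group). In CTCFAID2 cells the treated libraries of ARPP21 lie between 415 and 448 CPM against 268 to 271 CPM without auxin, MEN1 goes the other way, and in WT cells ZEB2 and ARID1B lie lower with IAA.

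In WT cells IAA for 24 h lowered a few members and raised LMO2. TAPT1-AS1 was at 17.3 and 16.7 CPM without and 12.2 and 12.8 CPM with IAA and fell by 0.45 ± 0.06 (adjusted p = 0.000291). ELL2 measured 8.50 and 8.93 CPM without and 7.29 and 6.57 CPM with IAA, and fell by 0.33 ± 0.11 (adjusted p = 0.0418). These were the only members that fell by the test in both lines at 24 h. The call for ELL2 in WT cells was lost in 11 of 20 alternatives, and that for TAPT1-AS1 in CTCFAID2 cells in 7 of 20. ARID1B was at 126 and 134 CPM without and 105 and 109.5 CPM with IAA, and fell by 0.27 ± 0.05 (adjusted p = 0.00232). ZEB2 was at 225 and 233 CPM without and 196 and 186 CPM with IAA, and fell by 0.26 ± 0.05 (adjusted p = 0.00223). In both genes the treated libraries lay below the untreated ones, opposite to CTCFAID2 cells. GNAQ, RUNX2 and MEF2C also fell, by 0.22 ± 0.05, 0.19 ± 0.06 and 0.18 ± 0.04. LMO2 rose by 0.20 ± 0.05 (adjusted p = 0.00755), a call lost without replicate 1 of the untreated or replicate 2 of the treated WT libraries (adjusted p = 0.0553 and 0.0785). Without replicate 2 of the WT libraries with IAA fewer members fell, and fewer of all genes. Without replicate 4 of the treated CTCFAID2 libraries, which belong to the same fit, 13 members fell, and 1661 of all 13952 genes. The reason was not tested. AFF1 did not pass in WT cells, at 143 and 163 CPM without and 139 and 135 CPM with IAA (log2 fold change -0.16, 95% interval from -0.30 to -0.01, adjusted p = 0.128). For MEIS1 the interval ran from -0.12 to 0.05, for MEN1 from -0.25 to 0.07 and for DOT1L from -0.27 to 0.12.

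The 24 h effects of both lines were compared directly, as the difference of the log2 fold change of CTCFAID2 from that of WT cells. The difference passed for 24 of 30 members, and it was positive for 22 (73.3%, against 19.3% of all genes) and negative for 2 (6.67%, against 20.9%). It was largest for ARPP21, at 0.80 ± 0.05 (adjusted p = 2.14e-08), and exceeded 0.6 for ARID1B (0.69 ± 0.06), GNAQ (0.65 ± 0.06), LGALS1 (0.64 ± 0.08) and ZEB2 (0.64 ± 0.06). It was negative for LMO2, at -0.55 ± 0.06 (adjusted p = 3.76e-06), and for MEN1, at -0.24 ± 0.09 (adjusted p = 0.0471). The call for MEN1 was lost in 12 of 19 alternatives, as was that for PBX3, which was positive. Of the other positive calls DOT1L was lost in 8 and AFF4 in 2 of them. AFF1 differed by 0.37 ± 0.08 (adjusted p = 0.00252) and MEIS1 by 0.25 ± 0.05 (adjusted p = 0.000928). ELL2, PSIP1, TCF4, EYA1, CDKN1B and PARP8 did not pass. The lines were treated with different auxins, the protocol names doxycycline for the WT cells, and processing may differ between their libraries. Line, auxin, doxycycline and any such processing cannot be told apart in this difference.

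Many members are long genes, a property that the list did not use. Their median span in the annotation was 159 kb for the 30 tested at 24 h, against 28.2 kb for all tested genes with a match. LGALS1 and MEN1 were the shortest, at 4.17 and 7.79 kb. The span was therefore set beside the calls. In CTCFAID2 cells 84.2% of the 19 tested members of at least 100 kb rose, against 40.5% of 2365 tested genes of that length and 26.9% of shorter genes. In WT cells with IAA 26.3% of the same 19 members fell, against 27.6% of genes of at least 100 kb and 5.93% of shorter genes. The falls of the long members in WT cells were thus no more frequent than among long genes in general, whereas the rises in CTCFAID2 cells were above the share of long genes. On the mean of the 6 h lines 20% of the 20 long members rose and 20% fell, against 36.2% and 23.5% of long genes. The part of gene length in these results was not tested.

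After 6 h of auxin the members changed in both directions. Over the mean effect of the 4 lines, 9 of 31 members rose (29.0%, against 25.1% of all 13902 tested genes) and 7 fell (22.6%, against 26.4%), so the members were called about as often as genes at large. The median log2 fold change was 0.09, against -0.01 over all genes. LGALS1, CDKN1B, TAPT1-AS1, SPATS2L, GNAQ, MEIS1, ARPP21, CPEB2 and AFF4 rose, and MYB, DOT1L, ARID1B, RUNX1, AFF1, MEN1 and PBX3 fell. In single lines, with 2 libraries a group, 3 members rose and 5 fell in the WT line (6.45% and 7.21% of all genes), 5 rose and 2 fell in DeltaZ10 (8.88% and 9.24%), and 5 rose and 1 fell in DeltaRBR (4.80% and 5.68%). In DeltaZ1 cells 14 rose and 3 fell (17.1% and 16.4% of all genes). Both numbers were larger without replicate 1 with IAA, among the members and over all genes. Among the members they were smaller without replicate 2 with IAA. With the DeltaZ1 groups fitted alone no member passed, and the spread between their replicates was then the only one used. With the DeltaZ1 line left out altogether, 6 members rose and 10 fell on the mean of the other lines, a fit whose share over all genes is not given here. Of the 16 calls named above 12 then still passed. The 4 that did not were ARPP21 (0.09, adjusted p = 0.0506), AFF4 (0.07, adjusted p = 0.0595), CPEB2 (0.09, adjusted p = 0.173) and MEN1 (-0.06, adjusted p = 0.263). With either of the treated DeltaZ1 libraries left out, more members rose on the mean. More also fell in DeltaZ10 and DeltaRBR cells, which belong to the same fit, and the reason was not tested. Over all genes these numbers were larger too without replicate 1.

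MYB showed the most negative change at 6 h. In the WT line it was at 171 and 177 CPM without and 81.3 and 78.5 CPM with IAA, and in DeltaZ1 cells at 186 and 176 against 121 and 141 CPM. In DeltaZ10 cells it was at 165 and 165 against 98.6 and 87.5 CPM, and in DeltaRBR cells at 174 and 174 against 109 and 98.4 CPM. Every treated library was below every untreated library of the set. The fall was 1.12 ± 0.08 in the WT line (adjusted p = 1.34e-05), the only change of a member that reached 2-fold, and 0.79 ± 0.04 on the mean of the lines (adjusted p = 6.94e-08).

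LGALS1 and CDKN1B rose in every line. LGALS1 was at 162 and 160.1 CPM without and 268 and 263 CPM with IAA in the WT line, and at 155 and 169.6 against 257 and 229 CPM in DeltaZ1 cells. It was at 154 and 171 against 299 and 284 CPM in DeltaZ10 cells and at 149.5 and 174 against 283 and 255 CPM in DeltaRBR cells. The mean rise was 0.72 ± 0.04 (adjusted p = 2.78e-07), with values from 0.58 in DeltaZ1 to 0.84 in DeltaZ10 cells, and no treated library overlapped the untreated ones. CDKN1B measured 119.7 and 118 CPM without and 158 and 152 CPM with IAA in the WT line, and 117 and 112 against 170.0 and 204 CPM in DeltaZ1 cells. It measured 107 and 114 against 172 and 145 CPM in DeltaZ10 and 114 and 112 against 166 and 161 CPM in DeltaRBR cells. The mean rise was 0.53 ± 0.05 (adjusted p = 2.98e-06), again without overlap. CDKN1B shares its locus with GPR19, whose reads may be counted with it. SPATS2L rose from 37.8 to 42.6 CPM without to 48.9 to 53.6 CPM with IAA over 8 libraries each, by 0.38 ± 0.03 (adjusted p = 4.17e-06).

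**Figure D3:**
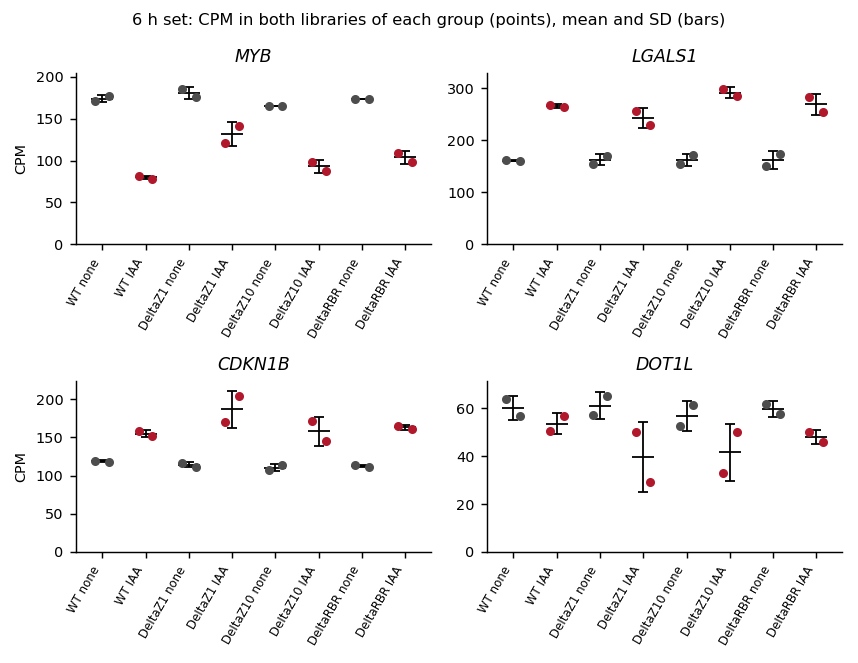
CPM of MYB, LGALS1, CDKN1B and DOT1L in both libraries of each of the 8 groups of the 6 h set (points) with mean and SD (bars), without IAA in grey and with IAA in red. MYB lies at 78.5 to 141 CPM with IAA against 165 to 186 CPM without, LGALS1 and CDKN1B lie higher with IAA in every line, and DOT1L differs between replicates.

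DOT1L fell on the mean of the lines, but its replicates were far apart. It was at 63.8 and 56.6 CPM without and 50.5 and 56.7 CPM with IAA in the WT line, and at 57.2 and 65.1 against 49.98 and 29.2 CPM in DeltaZ1 cells. It was at 52.4 and 61.3 against 33.1 and 50.04 CPM in DeltaZ10 and at 62.0 and 57.5 against 50.2 and 45.9 CPM in DeltaRBR cells. The mean change was -0.41 ± 0.11 (adjusted p = 0.00797), and the groups overlapped in the WT line. AFF1 was at 175 to 224 CPM (median 191) over the 8 untreated libraries and at 147 to 184 CPM (median 160.4) over the 8 treated ones. These ranges overlapped through 1 treated DeltaZ1 library, and AFF1 fell by 0.26 ± 0.04 on the mean (adjusted p = 0.000331). MEIS1 was at 162 to 177 CPM without (median 169) and 187 to 219 CPM with IAA (median 192), without overlap, and rose by 0.20 ± 0.03 (adjusted p = 9.27e-05). MEN1 was at 28.8 to 32.1 CPM without (median 30.4) and 22.3 to 30.8 CPM with IAA (median 28.2), with a mean change of -0.14 ± 0.05 (adjusted p = 0.0238) that did not pass without the DeltaZ1 line. RUNX1 fell by 0.39 ± 0.07 (adjusted p = 0.000779), ARID1B by 0.40 ± 0.09 (adjusted p = 0.00237) and PBX3 by 0.13 ± 0.04 (adjusted p = 0.0115). The smallest changes belonged to SENP6, RUNX2, LMO2 and CDK6, between -0.03 and 0.02, and none of these passed.

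**Figure D4:**
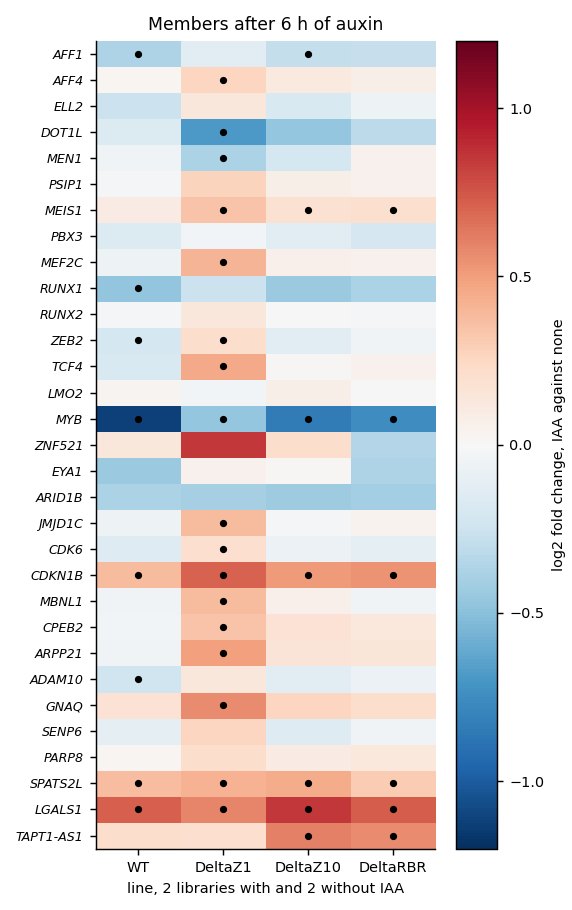
Log2 fold change of the 31 members for IAA against none in each line of the 6 h set (2 libraries a group), with dots at an adjusted p of at most 0.05. MYB is negative and LGALS1, CDKN1B and SPATS2L are positive with a dot in all 4 lines, and DeltaZ1 holds the most dots, 14 rises and 3 falls.

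The effect of IAA in each deletion line was compared with that in the WT line. These differences share the WT libraries. For DeltaZ1 the difference passed for 2 of 31 members, both positive (6.45%, against 0.259% of all genes), and for 0 in the negative direction (0.0719% of all genes). MYB fell less in DeltaZ1 cells than in the WT line, with a difference of 0.66 ± 0.12 (adjusted p = 0.0468), and ARPP21, which hardly moved in the WT line (-0.04 ± 0.06), rose more, with a difference of 0.53 ± 0.09 (adjusted p = 0.0435). More members passed in both directions without replicate 1 of the treated DeltaZ1 libraries, and so did more of all genes. The differences were then 0.76 for MYB and 0.56 for ARPP21, and without replicate 2 they were 0.55 and 0.50. Both calls were lost when most other single libraries were left out, with an adjusted p of up to 0.253 for MYB and 0.241 for ARPP21. No member passed for DeltaZ10 or DeltaRBR by limma-voom, edgeR or DESeq2, and 2 members had an unadjusted p under 0.05 in each. For MYB the differences were 0.29 in DeltaZ10 and 0.37 in DeltaRBR. Averaged over both treatments, MYB was higher in the DeltaZ1 than in the WT line, by 0.39 ± 0.06 (adjusted p = 0.0376). It was the only member that passed for any deletion line (0.0647% of genes were higher and 0.0288% lower in DeltaZ1). The means were 181 against 174 CPM without IAA and 131 against 79.9 CPM with IAA. The call thus draws mainly on the treated libraries that also gave the difference above, and is not separate from it. This call was lost when single libraries other than those treated in the DeltaZ1 and DeltaZ10 lines were left out.

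Set side by side, the 24 h libraries of CTCFAID2 cells and the 6 h libraries, which share no samples, gave 16 members that passed in both. The direction was the same for 9 and opposite for 7 (43.8%, against 30.9% of the 4484 genes that passed in both). Without the DeltaZ1 line 5 of those 9 and all of those 7 still passed at 6 h. AFF1, DOT1L, PBX3, RUNX1, MYB and ARID1B were lower at 6 h and higher at 24 h, and TAPT1-AS1 was higher at 6 h and lower at 24 h. LGALS1 was raised alike, by 0.72 on the mean at 6 h and 0.70 at 24 h. CDKN1B rose by 0.53 at 6 h and by 0.17 at 24 h, whereas ARPP21 was at 0.19 at 6 h, or 0.09 without the DeltaZ1 line, and rose by 0.68 at 24 h. MEN1 was at -0.14 at 6 h, or -0.06 without the DeltaZ1 line, and fell by 0.33 at 24 h. Times, lines, the agent as labelled and possibly the presence of an added CTCF differ together between the sets. Their parts cannot be told apart, and the difference between times was not tested.

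**Figure D5:**
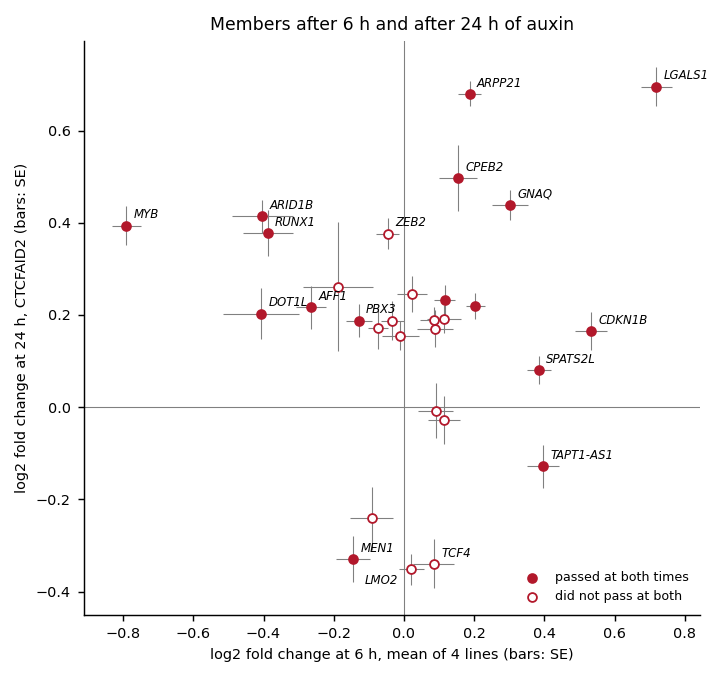
Log2 fold change with SE of the 30 members tested in both sets, at 6 h on the mean of 4 lines (horizontal) and at 24 h in CTCFAID2 cells (vertical), filled where the member passed in both. MYB, ARID1B, RUNX1, DOT1L, AFF1 and PBX3 lie upper left, lower at 6 h and higher at 24 h, and LGALS1 lies upper right at 0.72 and 0.70.

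Other genes of the pathway, in lists also chosen with earlier results of these data known, were read beside the members. Of 36 genes of KMT2A and elongation complexes, 35 were tested at 24 h, and in CTCFAID2 cells 12 rose (34.3%, against 29.2% of all genes) and 6 fell (17.1%, against 29.5%), with a median log2 fold change of 0.05. KMT2A itself rose by 0.16 ± 0.04 (adjusted p = 0.00545), and on the mean of the 6 h lines it fell by 0.37 ± 0.05 (adjusted p = 0.000158), as AFF1 did. The smallest adjusted p in this list belonged to AFF3, an AFF1 paralog, which rose by 0.71 ± 0.05 (adjusted p = 5.09e-08), the Polycomb methyltransferase EZH2 (0.23 ± 0.02) and CTR9, of the PAF1 complex (0.36 ± 0.04). AFF3 went the other way in WT cells with IAA, where it fell by 0.72 ± 0.09 (adjusted p = 0.000136), and it fell by 0.51 ± 0.08 at 6 h (adjusted p = 0.000247). On the mean at 6 h, 8 genes of this list rose (22.2%, against 25.1% of all genes) and 12 fell (33.3%, against 26.4%).

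Of 30 further fusion targets, 26 were tested at 24 h, and in CTCFAID2 cells 19 rose (73.1%, against 29.2% of all genes) and 1 fell (3.85%, against 29.5%), with a median of 0.18 beside the 0.19 of the members. This list too was chosen with earlier results known, so it is no separate check on the members. IKZF1, the Ikaros gene of lymphoid differentiation, rose by 0.54 ± 0.02 (adjusted p = 3.14e-10), PPP2R5C, a phosphatase subunit, by 0.24 ± 0.02 (adjusted p = 7.26e-07) and the receptor tyrosine kinase gene FLT3 by 0.23 ± 0.03 (adjusted p = 7.36e-06). In WT cells with IAA 0 of the 26 rose and 6 fell by limma-voom (23.1%, against 9.57% of all genes). On the mean at 6 h 7 of 27 rose (25.9%, against 25.1% of all genes) and 13 fell (48.1%, against 26.4%), with a median of -0.12. Of 11 tested B-cell precursor markers, 6 rose and 2 fell at 24 h in CTCFAID2 cells, where their summed level went from 1228 to 1252 CPM without to 1403 to 1437 CPM with 5-Ph-IAA. Of 12 tested at 6 h, 1 rose and 9 fell on the mean. Over all genes 29.2% rose and 29.5% fell at 24 h, and 25.1% and 26.4% at 6 h. Both tested T and NK markers rose at 24 h, with a summed level of 66.3 to 70.1 CPM without and 78.8 to 84.1 CPM with 5-Ph-IAA, and neither passed at 6 h. Of 4 tested myeloid markers 1 rose and 2 fell at 24 h, with a sum of 41.3 to 43.1 CPM without and 36.1 to 39.6 CPM with 5-Ph-IAA. At 6 h 1 rose and 3 fell, and the sum was lower with IAA in each line, from 37.5 and 38.4 to 23.3 and 25.8 CPM in the WT line. The stromal list had 1 tested marker at 24 h, which did not pass, and at 6 h 1 of 2 fell. In bulk RNA fewer cells of a kind and less RNA per cell cannot be told apart, and the part of such shifts in the members' changes was not tested.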

How the data were processed

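RNA-seq of 28 libraries was used (24 h, 12 libraries; 6 h, 16). Reads were trimmed (Trim Galore 0.6.3) by the authors, who aligned them with STAR 2.7.9a to hg19 (GRCh37) with GENCODE annotation and quantified genes with RSEM 1.3.1. The deposited expected counts were rounded to whole numbers, 92 spike-in rows, which held 0 counts, were left out, and the deposited TPM values were used only to set levels of genes side by side. The labels name a 3′ kit whereas the study's methods describe stranded total RNA, and the strand used in counting is not given in the sources used here. Groups were taken from the sample labels.

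Genes with a CPM over 1 in at least 1 library of a set were tested, 13973 at 24 h and 13902 at 6 h. Counts were scaled by TMM factors (edgeR 4.0.16) and fitted with limma-voom (limma 3.58.1, R 4.3.3), with all groups of a set in 1 fit and no covariate, and p-values were adjusted by Benjamini-Hochberg over all tested genes at a threshold of 0.05. Errors of fold changes are SE and intervals are at 95%. Alternatives were the quasi-likelihood test of edgeR, DESeq2 1.42.0, other size factors, other filters, fits of the compared groups alone, the replicate number as a block and each library left out. The fits were tested on simulated data with known changes.

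Values in every library were given for the 8 members with the largest change at 24 h in CTCFAID2 cells, the 4 in WT cells and the 4 on the 6 h mean, and for AFF1, MEIS1, MEN1 and DOT1L. Further genes were the 3 with the smallest adjusted p of each other list. SPATS2L at 6 h and the values of replicates that stood apart were added after they had been seen. The members and lists were chosen with earlier results of these data known. Gene positions came from GENCODE lifted to GRCh37, and promoters from RefSeq, GRCh38.p14, with 23 members matched. Depth limits EYA1 and ZNF521, which held at most 269 and 39 counts in a library.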

Additional observations from a re-analysis of the deposited data

Results flagged for a closer look

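In CTCFAID2 cells with 5-Ph-IAA, LMO2 was at 55.2 CPM in replicate 4 and at 50.5 to 50.9 CPM in the others, a gap of 0.909 of the group's range. Among 62 groups of 4 libraries examined this way, chance alone gives about 1 in 20.

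The effect of auxin at 24 h differed between CTCFAID2 and WT cells, by the tested difference of the log2 fold changes (limma-voom). It was above 0.4 for ARPP21 (0.80), ARID1B (0.69), GNAQ (0.65), LGALS1 (0.64), ZEB2 (0.64), CPEB2 (0.57), MYB (0.52), RUNX1 (0.48) and RUNX2 (0.43). It was between 0.3 and 0.4 for MEF2C (0.38), AFF1 (0.37), CDK6 (0.36), ADAM10 (0.34), TAPT1-AS1 (0.32) and MBNL1 (0.31). It was lower for JMJD1C (0.28), DOT1L (0.28), MEIS1 (0.25), SENP6 (0.25), AFF4 (0.21), SPATS2L (0.21) and PBX3 (0.17), and negative for MEN1 (-0.24) and LMO2 (-0.55).

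At 6 h the effect of IAA in DeltaZ1 cells differed from that in the WT line for MYB (0.66) and ARPP21 (0.53).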

How the results depend on the processing

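Of 2543 fold changes of members that passed, recomputed under the alternatives, 2261 kept direction and side of the threshold, 282 kept direction but no longer passed and 0 reversed. In CTCFAID2 cells at 24 h, 25 of 27 calls held under every alternative run, the exceptions being SPATS2L and TAPT1-AS1. The same held for 20 of 24 calls of the 24 h difference, 3 of 8 in WT cells at 24 h, 11 of 16 on the 6 h mean and 0 of 17 in DeltaZ1 cells.

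The 24 h difference was negative for 1 member instead of 2 with RLE factors, with library sizes alone, with no low-count filter and with the replicate block. In the 6 h WT line 3 fell instead of 5 with library sizes alone and with no filter. With only the compared groups fitted, 0 rose and 0 fell in DeltaZ1 cells and 5 fell in DeltaRBR cells, where 2 fell by DESeq2. In DeltaZ10 cells 1 fell with library sizes alone. The DeltaZ1 difference was positive for 8 members by DESeq2 (235 of all 13902 genes) and for 0 with no filter, with only the compared groups or with the replicate block. In the DeltaZ1 line 2 were higher by DESeq2 (63 of all genes) and 0 under those same 3 alternatives. The causes were not tested.

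With each library left out in turn, 0 to 1 rose and 3 to 13 fell in WT cells at 24 h, and 1 to 2 fell in the 24 h difference. In the 6 h WT line 1 to 4 rose and 1 to 7 fell, in DeltaZ1 cells 7 to 17 rose and 1 to 6 fell, in DeltaZ10 cells 1 to 5 fell, and in DeltaRBR cells 3 to 6 rose and 1 to 4 fell. On the 6 h mean 8 to 15 rose. For the DeltaZ1 difference 0 to 14 rose and 0 to 2 fell, and for the DeltaZ1 line 0 to 11 rose and 0 to 4 fell. The highest of these 6 h counts came without replicate 1 of the treated DeltaZ1 libraries. In that fit 1 treated DeltaZ1 library was left, and the numbers over all genes were also larger than in the main fit. The member counts of that fit are therefore not a result about the members in particular. The fewest rises in DeltaZ1 cells came without replicate 2 of its untreated libraries.

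Replicate numbers were not taken to pair the libraries, since same-numbered libraries did not deviate together in every group. The correlations of their deviations were -0.34 to 0.12 in CTCFAID2 cells and 0.07 in WT cells at 24 h. At 6 h they were positive in the WT line (0.31), DeltaZ10 (0.43) and DeltaRBR (0.25), and -0.32 in DeltaZ1. With 2 libraries a group, crossing the numbers changes only the sign of this value, in every line alike. With the replicate block 21 members rose and 4 fell in CTCFAID2 cells. With the DeltaZ1 numbers crossed, chosen after seeing the data, 14 rose and 3 fell in DeltaZ1 cells. Also chosen after seeing the data, the 6 h mean without the DeltaZ1 line gave 6 rises and 10 falls.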
